A study of Homo sapiens with 4 samples.

Results

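The subject here is the proteasome's exchangeable subunits, which comprise 10 genes. PSMB8, PSMB9 and PSMB10 encode the catalytic subunits of the immunoproteasome, and PSMB5, PSMB6 and PSMB7 encode the standard catalytic subunits whose places they take. PSME1 and PSME2 encode the activator PA28 alpha-beta, PSME3 encodes the related PA28 gamma, and POMP encodes the maturation protein of the core particle. The members were taken as the probesets, small groups of probes reading about 1 exon each, that list 1 of these symbols and no other. They came to 71 of 232479 probesets and to 10 of 15719 genes tested. The genes were chosen by name, with earlier results of these data known.

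The measurements came from exon arrays of T-47D cells, an established luminal breast cancer line that carries hormone receptors. The mimic group was 2 arrays of cells transfected with the artificial microRNA p-27-5p at 200 nM, and the control group was 2 arrays of cells given a pre-miR negative control instead. All 4 samples were total RNA of cells grown in DMEM with serum and transfected with TurboFect, and the labels give no time of harvest and no separate dose of the control. The labels do not say whether arrays of a group are of separate cultures, so the p-values cover the spread between arrays alone, which may be technical. Levels below are log2 values, and a change is the mimic mean minus the control mean of them. Tests are limma's, with p-values adjusted over all genes (Benjamini-Hochberg) and called under 0.05.

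The proteasome is the main protease of the cytosol and nucleus, and its products are the source of most peptides shown on MHC class I. Its barrel-shaped core carries caspase-like activity on PSMB6, trypsin-like activity on PSMB7 and chymotrypsin-like activity on PSMB5. Interferons induce PSMB9, PSMB10 and PSMB8, which are built into newly assembled cores in place of PSMB6, PSMB7 and PSMB5, and they also induce PA28 alpha-beta, a cap that opens the gate of the core. Epithelial cells normally carry mostly standard cores, whereas leukocytes carry many immunoproteasomes.

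Promoter windows are given first, because 4 of the 5 inducible members were called higher, against 1.52% of all genes tested. Any part of the motifs in these calls was not tested. RefSeq windows of the build GRCh38.p14, from 250 bases before to 50 bases after a start site, were given for 8 of the 10 members, in 10 windows of 300 bases, and none was used for PSMB6 and PSMB7. The interferon-stimulated response element, to which IRF family factors such as IRF1 bind, was searched on both strands as a pair of GAAA repeats with any 2 bases between them. It was found in windows of 4 members, PSMB8, PSMB10, PSME1 and PSME2, and in none of those of PSMB9, PSMB5, PSME3 and POMP. Among all 35116 windows 3.57% held this motif, and among all 27305 genes 4.38% did. In all 4 members the matched letters were the same decamer, GAAAGCGAAA, which lies within the searched motif and was singled out after the sequences were seen. It occurred in 34 genes, or 0.124% of all genes with a window. The windows are printed below in the direction of each gene, with the match in capitals (TTTCGCTTTC is the decamer on the opposite strand).

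The second PSMB8 window, chr6:32843998-32844297 on the minus strand, has the decamer across the start site, from base -4 to base 5, counting the start as base 0.
PSMB8: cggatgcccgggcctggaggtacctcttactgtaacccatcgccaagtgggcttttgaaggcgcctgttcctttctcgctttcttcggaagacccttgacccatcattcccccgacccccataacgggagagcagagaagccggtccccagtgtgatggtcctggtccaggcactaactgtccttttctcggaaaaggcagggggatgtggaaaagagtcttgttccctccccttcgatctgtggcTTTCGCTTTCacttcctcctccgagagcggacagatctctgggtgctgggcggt
PSMB10, chr16:67936801-67937100 on the minus strand, has it from base -21 to base -12.
PSMB10: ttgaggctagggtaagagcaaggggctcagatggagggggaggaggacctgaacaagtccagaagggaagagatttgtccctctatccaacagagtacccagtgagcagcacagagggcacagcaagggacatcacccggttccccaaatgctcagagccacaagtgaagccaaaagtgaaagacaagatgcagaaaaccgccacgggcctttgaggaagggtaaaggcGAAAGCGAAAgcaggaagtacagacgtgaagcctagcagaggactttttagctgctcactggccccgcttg
PSME1, chr14:24135944-24136243 on the plus strand, has it from base 5 to base 14.
PSME1: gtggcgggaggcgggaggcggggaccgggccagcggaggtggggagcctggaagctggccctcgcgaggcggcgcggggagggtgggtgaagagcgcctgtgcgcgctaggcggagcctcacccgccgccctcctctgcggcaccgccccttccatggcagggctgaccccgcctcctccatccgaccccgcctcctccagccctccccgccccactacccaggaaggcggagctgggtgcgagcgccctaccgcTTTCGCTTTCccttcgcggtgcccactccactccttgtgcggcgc
PSME2, chr14:24146561-24146860 on the minus strand, has it from base -28 to base -19.
PSME2: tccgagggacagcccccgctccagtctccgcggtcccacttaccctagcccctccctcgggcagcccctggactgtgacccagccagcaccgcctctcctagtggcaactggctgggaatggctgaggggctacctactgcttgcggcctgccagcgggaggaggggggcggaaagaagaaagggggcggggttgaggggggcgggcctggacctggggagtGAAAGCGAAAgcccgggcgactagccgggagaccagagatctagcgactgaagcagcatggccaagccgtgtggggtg
The first TAP1 window, chr6:32853655-32853954 on the minus strand, is shown because TAP1 lies head to head with PSMB9, with 488 bases between the start sites. It holds 2 overlapping matches, which run together in capitals, and the decamer among them lies 360 to 369 bases before the PSMB9 start, outside the PSMB9 window.
TAP1: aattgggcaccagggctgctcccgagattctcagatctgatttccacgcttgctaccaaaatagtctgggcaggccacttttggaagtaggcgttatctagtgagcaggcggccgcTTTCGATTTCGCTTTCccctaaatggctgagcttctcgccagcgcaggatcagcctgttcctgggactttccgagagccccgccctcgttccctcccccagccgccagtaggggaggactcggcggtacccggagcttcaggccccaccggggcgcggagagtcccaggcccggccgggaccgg
The second PSMB5 window, chr14:23034851-23035150 on the minus strand, is shown as that of a standard subunit, and no letters are in capitals.
PSMB5: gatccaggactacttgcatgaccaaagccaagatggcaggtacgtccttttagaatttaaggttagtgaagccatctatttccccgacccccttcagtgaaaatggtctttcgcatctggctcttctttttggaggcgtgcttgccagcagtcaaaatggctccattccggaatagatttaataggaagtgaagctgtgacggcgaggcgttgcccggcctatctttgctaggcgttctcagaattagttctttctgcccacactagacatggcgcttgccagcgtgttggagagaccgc

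A gamma-activated site, a motif of interferon-gamma responsive promoters, was searched as TTCNNNGAA. It was found once each in the second PSMB8 window and the PSME3 window and at 2 places in the second PSMB5 window, against 7.66% of all windows. The antioxidant response element core TGACNNNGC, bound by NFE2L1 and NFE2L2, was in the windows of PSMB9, PSME1 and PSME2, against 13.3% of all windows. The NF-kB site was in no member's window and at 2 places in the first TAP1 window, against 5.91% of all windows. The GC box GGGCGG, which Sp1 binds, was in windows of PSMB8, PSMB9, PSME1 and PSME2, against 45.0% of all windows. A match is a run of letters and not a shown binding site, and a window without a match says only that these letters are not in it.

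**Figure D1:**
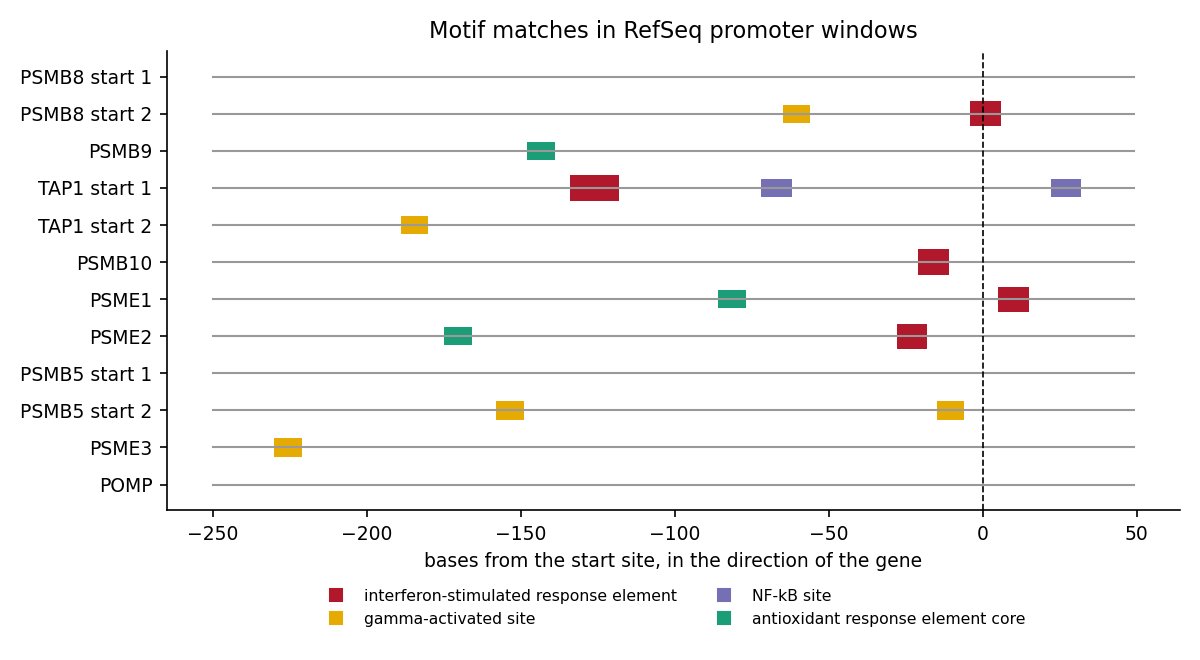
Positions of motif matches in RefSeq promoter windows of 8 members and of TAP1. Each line is 1 window, the x axis gives bases from the start site in the direction of the gene, and coloured blocks are matches on either strand (GC boxes are not drawn). The interferon-stimulated response element lies within 28 bases of a start site in PSMB8 (start 2), PSMB10, PSME1 and PSME2.

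The immunoproteasome catalytic subunits all rose in mimic cells, and no standard subunit was called. PSMB9 rose 8.44-fold, PSMB8 4.65-fold and PSMB10 4.26-fold, whereas PSMB5, PSMB6 and PSMB7 had changes from -0.49 to -0.11 that did not pass. PSME2 rose 2.41-fold. PSME1 had 1.35-fold and did not pass, and PSME3 and POMP had -0.11 and -0.04. In all, 4 of the 10 members were called higher, against 1.52% of all genes tested, and 0 were called lower, against 0.789% of all genes. Both mimic arrays lay above both control arrays for 5 of the 5 inducible members, against 20.5% of all genes, and below them for 2 of the 4 standard ones, against 29.5%. In bulk RNA, a larger share of cells with a transcript and more of it per cell cannot be told apart. The filter on dim probesets kept all 10 genes and 70 of their 71 probesets.

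PSMB9, the inducible caspase-site subunit (beta1i, or LMP2), had levels of 11.03 and 11.04 on the mimic arrays, against 8.07 and 7.85 on the control arrays. Both mimic arrays lay about 3 log2 units above both control arrays, and they differed from each other by less than the controls did. The change was 3.08 (SE 0.134), with a 95% confidence interval of 6.67 to 10.7-fold and a limma adjusted p of 0.000544. It ranked 50 from the top among all genes tested, and it passed under all 13 alternatives.

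PSMB8, the inducible chymotrypsin-site subunit (beta5i, or LMP7), had 9.59 and 9.63 in mimic cells and 7.30 and 7.48 in control cells. The groups did not overlap, and the change was 2.22 (SE 0.130), with an interval of 3.71 to 5.84-fold and a limma adjusted p of 0.00164. With every gene read by its brightest probeset, in place of the mean of 9 here, it had 1.92 (limma adjusted p = 0.119).

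PSMB10, the inducible trypsin-site subunit (beta2i, or MECL-1), had 7.54 and 7.57 in mimic cells and 5.68 and 5.26 in control cells. Its change was 2.09 (SE 0.174), with an interval of 3.14 to 5.77-fold and a limma adjusted p of 0.00672. Its control level, 5.47, and that of PSME2, 6.72, lay within the range of liver and neuron genes on control arrays, 3.78 to 6.85. The top of that range was SYT1 alone, and the next highest of those genes, APOA2, had 5.53. Signal over background is thus limited for PSMB10, while PSME2 lay above all of those genes but SYT1. PSMB10 was read by 2 probesets past the filter. With every gene read by its brightest probeset, PSMB10 had 1.59 (limma adjusted p = 0.147).

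The activator subunits PSME1 and PSME2 form 1 ring together. PSME2 rose and PSME1 did not pass, and the difference between them was not tested. PSME2 (PA28 beta) had 8.06 and 7.91 in mimic cells and 6.89 and 6.55 in control cells, a change of 1.27 (SE 0.163) with a limma adjusted p of 0.0281. Both mimic arrays were above both controls, but a single probeset read this gene. Without mimic replicate 1 it had 1.19 (limma adjusted p = 0.108) and without mimic replicate 2 it had 1.34 (limma adjusted p = 0.0656), and with every gene read by its brightest probeset its adjusted p was 0.123. PSME1 (PA28 alpha) had 9.41 and 9.55 in mimic cells and 8.91 and 9.19 in control cells. These groups did not overlap, yet the change of 0.43 (SE 0.152) had a limma p of 0.0332 unadjusted and 0.2 adjusted and did not pass. The interval for PSME1 ran from 1.04 to 1.76-fold, and that for PSME2 from 1.81 to 3.20-fold.

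**Figure D2:**
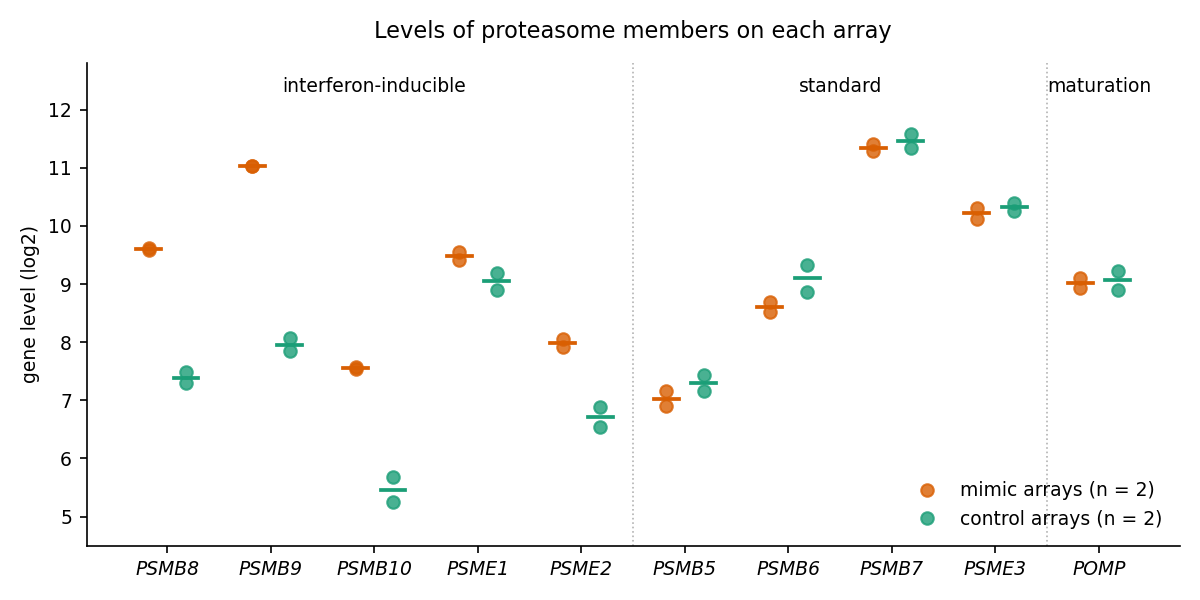
Gene level (log2, y axis) of the 10 members on each array. Points are single arrays and short lines are group means (n = 2 each), with mimic arrays left of control arrays. The mimic arrays lie above the control arrays for PSMB8, PSMB9, PSMB10, PSME1 and PSME2, with the widest gap at PSMB9 (11.04 against 7.96 on average).

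Among the standard catalytic subunits none was called. PSMB6, the caspase-like subunit, had 8.69 and 8.52 in mimic cells and 8.86 and 9.34 in control cells. Both mimic arrays were lower, with control replicate 2 standing highest. The change of -0.49 (SE 0.194) had a limma p of 0.0492 unadjusted and 0.243 adjusted, and a single probeset read the gene. Without control replicate 1 PSMB6 had -0.73 and passed (limma adjusted p = 0.0282), and without control replicate 2 it had -0.26 (limma adjusted p = 0.584).

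PSMB5, the chymotrypsin-like subunit and the main target of the drug bortezomib, had 6.90 and 7.15 in mimic cells and 7.17 and 7.44 in control cells. Mimic array 2 lay just below control array 1, so the groups came close without overlapping, and the change was -0.28 (SE 0.164, limma adjusted p = 0.412). PSMB7, the trypsin-like subunit, had 11.29 and 11.41 in mimic cells and 11.35 and 11.58 in control cells, which overlapped. Its change was -0.11 (SE 0.142, limma adjusted p = 0.694). The 95% intervals of the fold were 0.619 to 1.10 for PSMB5, 0.506 to 0.998 for PSMB6 and 0.721 to 1.18 for PSMB7, so moderate decreases were within what these arrays allow.

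PSME3, the nuclear activator subunit that forms rings of its own, had 10.12 and 10.31 in mimic cells and 10.26 and 10.40 in control cells. POMP, which guides assembly of the core and is known to be needed for immunoproteasome formation, had 8.94 and 9.11 in mimic cells and 8.90 and 9.23 in control cells. For both genes the arrays of the groups overlapped. The limma adjusted p was 0.693 for PSME3 and 0.908 for POMP, and the intervals of the fold were 0.728 to 1.18 and 0.730 to 1.29.

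**Figure D3:**
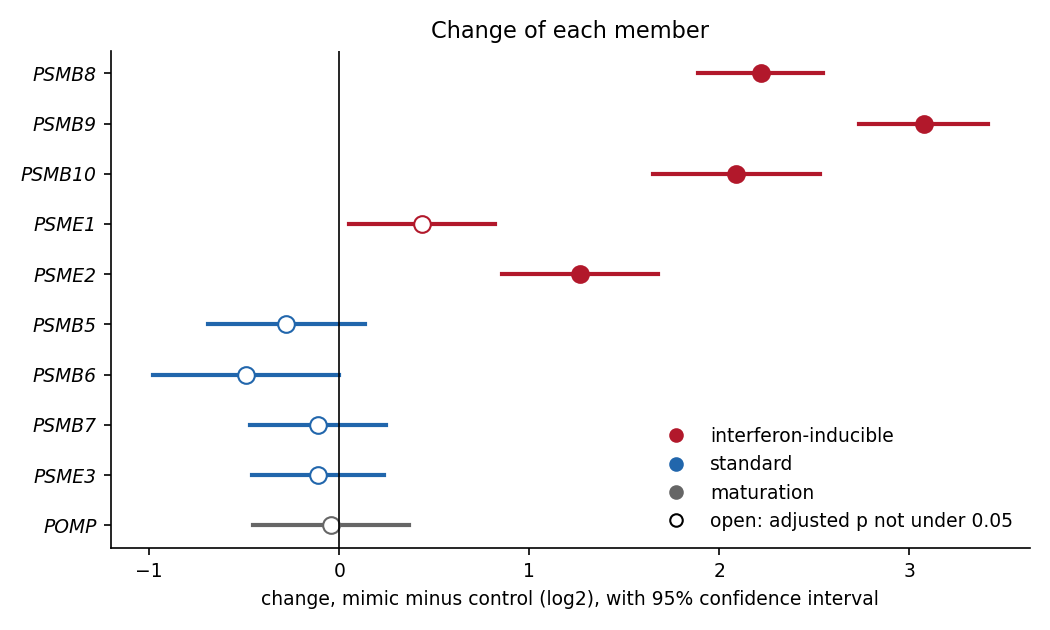
Change of each member, mimic minus control (x axis, log2), with limma's 95% confidence interval. Filled points passed an adjusted p of 0.05, and colours mark interferon-inducible members, standard members and POMP. PSMB9, PSMB8, PSMB10 and PSME2 are filled, with changes of 3.08, 2.22, 2.09 and 1.27.

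Each inducible subunit was then set against the standard subunit whose place it takes, within each array. Such a difference carries the brightness of the probes as well as the RNA, so only its shift between groups can be read. PSMB9 minus PSMB6 was 2.34 and 2.52 in mimic cells and -0.80 and -1.48 in control cells, a shift of 3.57, or 11.9-fold in the ratio of the 2 transcripts. PSMB8 minus PSMB5 was 2.69 and 2.48 in mimic cells and 0.14 and 0.04 in control cells, a shift of 2.50, or 5.64-fold. PSMB10 minus PSMB7 was -3.74 and -3.84 in mimic cells and -5.67 and -6.32 in control cells, a shift of 2.20, or 4.61-fold. In each pair both mimic arrays stood above both control arrays, and the groups lay far apart against their spread of 0.066 to 0.485 (SD, n = 2).

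For the activators, the mean of PSME1 and PSME2 minus PSME3 was -1.39 and -1.58 in mimic cells and -2.36 and -2.53 in control cells, a shift of 0.96, or 1.95-fold. The two-sided exact permutation p was 0.333 for each of these 4 shifts, and adjusting over the 4 leaves it there. That is the smallest p this permutation test can give with 2 arrays against 2, so it cannot pass the threshold. Leaving out each array in turn, the shifts ranged from 3.23 to 3.91, 2.39 to 2.60, 1.88 to 2.53 and 0.868 to 1.06, in the order given.

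Single probesets showed how evenly each transcript moved. Of the 29 probesets of the 5 inducible members, all had a change above 0, 26 had both mimic arrays above both control arrays, and 12 of the 28 that passed the filter were called higher. Among those 28, 25 had both mimic arrays above, and the background over all named probesets past the filter was 20.7% with both mimic arrays above and 0.823% called higher. Of the 32 probesets of PSMB5, PSMB6, PSMB7 and PSME3, 3 had both mimic arrays above and 7 had both below, against 27.1% of all such probesets below. No probeset of any member was called lower, against 0.0946% of all such probesets.

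All 5 probesets of PSMB9 were called, at changes from 2.84 to 3.32. Of the 9 of PSMB8, 6 were called, and the changes ranged from 1.33 on the dimmest probeset, whose control level was 4.47, to 3.11. The 3 probesets of PSMB10 had 2.59, 1.59 and 0.96. The last lay at 3.42 on the control arrays, below the filter, and was not tested. The 11 probesets of PSME1 all had changes above 0, from 0.13 to 0.74 with a median of 0.47, and 8 of them had both mimic arrays above both control arrays, but 0 were called. The 1 probeset of PSME2, with 1.27, was not called among single probesets (limma adjusted p = 0.102), although the gene was called. The 10 probesets of PSMB7 ran from -0.34 to 0.31, the 17 of PSME3 from -0.50 to 0.11 and the 10 of POMP from -0.64 to 0.31. The number of probesets called higher was 3 or 4, in place of 12, when mimic array 1 or 2 was dropped, and 8 or 7 when control array 1 or 2 was.

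**Figure D4:**
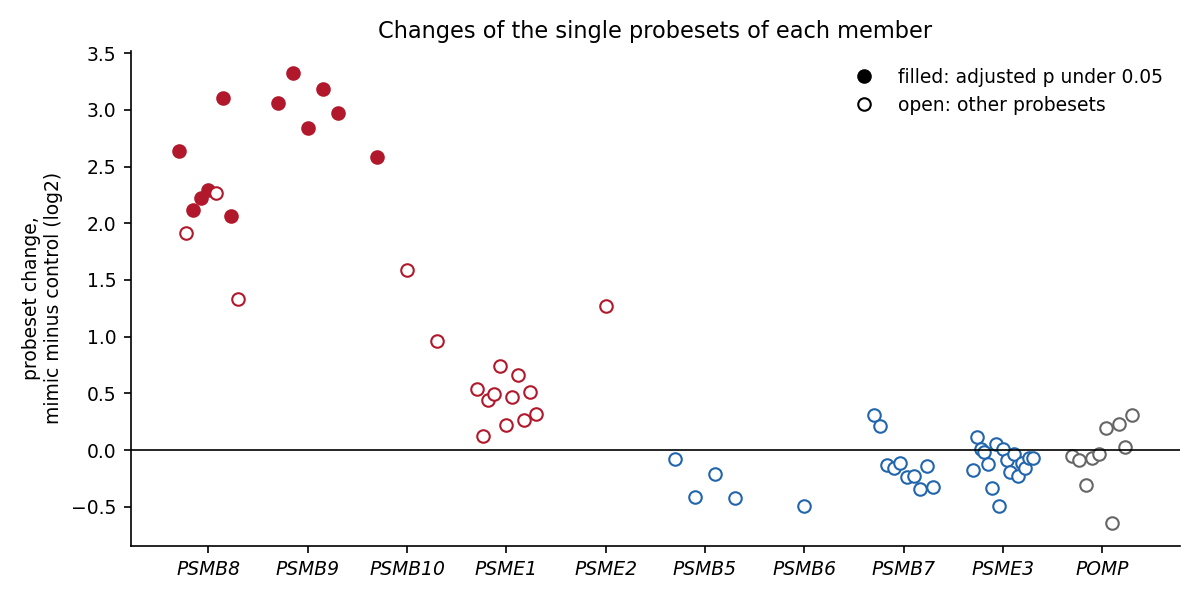
Change of every probeset of each member (y axis, log2, mimic minus control), in order of probeset number within a gene. Filled points passed an adjusted p of 0.05 over all probesets. The 5 PSMB9 probesets lie between 2.84 and 3.32, and those of the standard members and POMP lie between -0.64 and 0.31.

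No other proteasome gene was called. Of 41 other genes of the core, the regulatory particle and assembly, 35 were measured. Limma called 0 of them higher and 0 lower, against 1.52% and 0.789% of all genes. A count of 0 among 35 lies near those shares and does not set these genes apart. At an unadjusted p under 0.05, 1 was higher and 0 were lower, against 1203 higher and 2009 lower of all 15719 genes. Their median change was -0.07, against 0.0024 over all genes, and leaving out mimic replicate 1 or control replicate 2 turned it to 0.016 or 0.0023. The 5 inducible members had a median of 2.09 and the 4 standard members one of -0.20.

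The 6 measured alpha subunits of the core, which form its outer rings, had changes from -0.12 to 0.74. PSMA3, an alpha subunit, stood apart from the others at 10.70 and 10.90 in mimic cells and 9.91 and 10.19 in control cells. Its change of 0.74 (SE 0.157) had a limma adjusted p of 0.0871 and of 0.0493 with the replicate number as a block, so the call depends on the fit, and without control replicate 2 it had 0.88 (limma adjusted p = 0.0171). PSMA5 had 0.24. The 4 beta subunits without catalytic activity, PSMB1 to PSMB4, had -0.22 to 0.06. The base and lid of the regulatory particle, which bind and unfold ubiquitylated proteins, had -0.36 to 0.0032 for its 4 measured ATPases and -0.25 to 0.24 for its 12 measured other subunits. Among values below 0 the smallest p were those of the ATPases PSMC5 (-0.36) and PSMC3 (-0.27) and the lid subunit PSMD8 (-0.25), and PSMD7 had 0.24. Of the assembly chaperones PSMG1 had 0.13, and the inhibitor PSMF1 had -0.24. The limma adjusted p of these 7 genes was 0.257 or above.

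**Figure D5:**
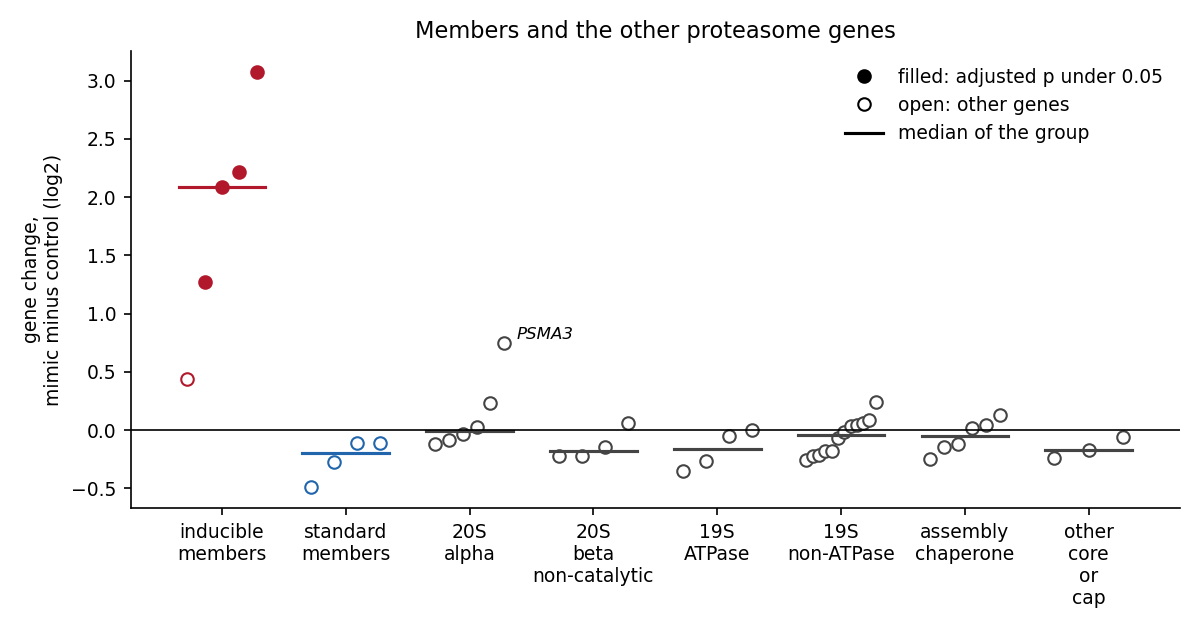
Change of each measured proteasome gene (y axis, log2, mimic minus control), by group. Points are genes, lines are group medians and filled points passed an adjusted p of 0.05. The medians are 2.09 for the 5 inducible members and -0.20 for the 4 standard members, and PSMA3 at 0.74 is the highest of the other genes.

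Regulators of the inducible subunits rose, and none of those of the standard subunits was called. IRF1, the factor that drives PSMB8, PSMB9 and PSMB10 transcription, had 8.27 and 8.31 in mimic cells and 5.03 and 4.83 in control cells, a rise of 3.36 (SE 0.134, limma adjusted p = 0.000427). NLRC5, the transactivator of MHC class I genes, rose by 2.94 (limma adjusted p = 0.000544). With every gene read by its brightest probeset, NLRC5 had 0.81 (limma adjusted p = 0.367). The control levels of IRF1 and NLRC5, 4.93 and 4.77, lay within the range of the liver and neuron genes, so the sizes of their rises are given against values not above background. IRF9 rose by 2.23 (limma adjusted p = 0.00118). NFE2L1 and NFE2L2, which drive standard proteasome genes under stress, had 0.17 and 0.14. DDI2 and NGLY1, which process NFE2L1, had -0.06 and -0.15. None of these 4 passed (limma adjusted p from 0.534 to 0.794).

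By gene order among the genes tested, PSMB8 lies between TAP2 and TAP1, which together form the peptide transporter, and PSMB9 lies beyond TAP1. Genes that were not tested can lie between a member and the neighbours named here. TAP1 rose 3.20-fold and TAP2 3.17-fold (limma adjusted p = 0.00452 and 0.0035). With every gene read by its brightest probeset, TAP1 had 1.62 (limma adjusted p = 0.080). On its other side PSMB9 adjoined PPP1R2P1, which had 0.26 (limma adjusted p = 0.539). EMC9, between PSME1 and PSME2, had -0.50 (limma adjusted p = 0.115), and RNF31, on the far side of PSME2, had 0.55 (0.104). PSMB10 adjoined CTRL, with 0.96 (limma adjusted p = 0.0571), and LCAT, with -0.11. The control levels of CTRL and LCAT, 5.08 and 6.80, lay within the liver and neuron range of 3.78 to 6.85. A further 6 probesets list both PSMB10 and CTRL and were left out of both genes' values. FITM1, beside PSME1, had 0.22. The neighbours of PSMB5, PSMB6, PSMB7, PSME3 and POMP (C14orf93 and CDH24, TM4SF5 and PLD2, NEK6 and ADGRD2, BECN1 and AOC2, FLT1 and SLC46A3) had changes from -0.38 to 0.29, and none passed.

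Genes outside the members with the most similar profile were found by the Euclidean distance of mean-centred levels over the 4 arrays. Nearest to PSMB8 were IRF9, PARP10 and PARP12 (distance 0.0672 to 0.0757). Nearest to PSMB9 were ISG15, C3 and IFI16 (0.147 to 0.179), and nearest to PSMB10 were BATF2, HLA-DPA1 and TRIM38 (0.104 to 0.24). Their changes, from 2.01 to 3.25, follow from how they were picked and are a description only. The control levels of IFI16 and HLA-DPA1, 3.43 and 4.02, lay below the filter level of 4.08, so these genes passed it through the mimic arrays. Those of C3 (4.26), ISG15 (5.02), BATF2 (5.24), TRIM38 (6.09) and PARP10 (6.16) lay within the liver and neuron range of 3.78 to 6.85. With brightest probesets PARP12 had -0.26, BATF2, HLA-DPA1, PARP10 and TRIM38 also missed the threshold, and ISG15 and IFI16 had 5.04 and 5.33.

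The decamer of the inducible windows was then looked up in other genes. Of the 30 other genes that held it, 20 were measured and 6 were called higher and 0 lower, or 30.0% against 1.52% of all genes. The 6 were PARP14 (3.76), SHFL (2.89), DDO (1.81), TAP1 (1.68), TAP2 (1.67) and MYD88 (1.15). On the control arrays SHFL (5.21 and 5.07) and DDO (4.68 and 4.45) lay within the liver and neuron range of 3.78 to 6.85. The others of the 6 lay above it. With brightest probesets SHFL, DDO, TAP1 and MYD88 missed the threshold (limma adjusted p from 0.0563 to 0.165). MYD88 also missed it without either mimic array (limma adjusted p = 0.103 and 0.0777), and DDO with probesets above the table's median (0.0593). The searched pair of GAAA repeats had 62 of 493 measured genes called higher and 2 lower with the members left out, or 12.6% higher. PSME1, which holds the decamer, was not called, and PSMB9, whose window holds neither, had the largest change of the members. These lists were read after the members' results were known, and no test was made of them.

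Markers of the labelled cell type were present. The 8 luminal markers (ESR1, PGR, GATA3, FOXA1, KRT8, KRT18, KRT19 and EPCAM) had levels of 8.77 to 12.14 on mimic arrays and 8.97 to 12.40 on control arrays. None was called higher or lower, against 1.52% and 0.789% of all genes, so few calls could be looked for among 8. At an unadjusted limma p under 0.05, 3 were lower, against 2009 of all 15719 genes. These were the estrogen receptor ESR1 (-0.42), the progesterone receptor PGR (-0.60) and the keratin KRT19 (-0.48), each with both mimic arrays below both control arrays (limma adjusted p = 0.139, 0.135 and 0.148). KRT8 had this too, so 4 of the 8 did, against 29.5% of all genes, and EPCAM had both mimic arrays above. The part of these markers in the members' changes was not tested. Of 8 leukocyte markers 7 were measured, at 4.81 to 6.96 on mimic arrays and 4.52 to 7.38 on control arrays. Of these, 0 were called higher or lower, against the same shares of all genes. At an unadjusted limma p under 0.05, 1 of them, CD14, was higher, against 1203 of all 15719 genes. The 14 measured liver and neuron genes had 4.34 to 6.43 on mimic arrays and 3.78 to 6.85 on control arrays. The summed leukocyte level was 39.9 and 38.4 on mimic arrays and 39.5 and 38.2 on control arrays, and these ranges overlap. PTPRC, the pan-leukocyte surface marker, averaged 4.81 on mimic arrays and 4.52 on control arrays, within the range of the liver and neuron genes. CD3E, at 6.96 on mimic and 7.38 on control arrays, lay above that range in both groups. CD14 lay above it on mimic arrays, at 6.68, and within it on control arrays, at 6.22. The other measured leukocyte markers lay within it.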

How the data were processed

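Gene expression was measured in 2 mimic and 2 control arrays of T-47D cells. The deposited values are log2 levels per exon-level probeset; the submitters' processing notes name Partek, RMA and hg18, without versions or order of steps. The 4 columns do not share 1 distribution, with interquartile ranges from 4.18 to 4.52. Symbols came from GEO's platform annotation: 216780 probesets list 1 symbol, 2335 several and 13364 none, and old symbols of 25769 probesets were updated through RefSeq synonyms. Members were matched by the listed symbol alone.

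A gene's value was the mean of its probesets whose mean over the 4 arrays reached the table's 25th percentile, 4.08. The test was limma's moderated one (version 3.58.1, R 4.3.3; lmFit, eBayes, two-sided), on 2 residual degrees of freedom, or 5.29 once the prior is added. Shifts of within-array differences used an exact permutation test. Data handling used the R package data.table (version 1.17.8) and pandas (version 2.3.3), and plots matplotlib (version 3.10.9).

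Named genes are the members, the 4 smallest p in each direction among other proteasome genes, regulators, neighbours and most similar genes; the decamer genes were named after their values were seen. Members and lists were chosen with earlier results of these data known. The fit was tested on simulated data of 15719 genes in 2 against 2 arrays. It recovered 20% of genes changed by 1 and 77% of those changed by 2 on the log2 scale, with 4 false calls. The simulated arrays varied independently of each other and without regard to level, so these shares need not hold for the real arrays.

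The series' design text calls mimic and control samples paired but does not say what a pair shares. Over genes, deviations of same-numbered arrays from their group means correlated with r = 0.435. The alternatives were this replicate block, quantile normalization, equal medians, other filters, each array left out, median or brightest probeset, an intensity trend and robust hyperparameters. The few arrays limit the precision. Promoter sequences are RefSeq's, GRCh38.p14.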

Additional observations from a re-analysis of the deposited data

How the results depend on the processing

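The 10 members' changes were recomputed under 13 alternatives, and direction and side of the threshold stayed in 121 cases, with 5 weaker, 1 stronger and 3 reversed. Only PSMB9 passed with brightest probesets, so the count of members called higher was 1 there, against 4. It was 3 to 4 with an array left out, and 4 in each other alternative. The count called lower was 0 in all but 1 alternative, and 1, PSMB6, without control replicate 1. With an array left out POMP ranged from -0.21 to 0.12 (0.04 when mimic array 1 was dropped) and PSMB7 from -0.23 to 0.00096, all uncalled. With brightest probesets PARP12 turned to -0.26.

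The replicate block changed no member's call, while PSMA3 passed (adjusted p = 0.0493). The count of other proteasome genes higher was then 1, as with quantile normalization, no filter and an intensity trend, and 0 to 1 with an array left out. Their median was -0.038 with quantile normalization, -0.051 with equal array medians, -0.054 with probesets above the table's median, -0.043 with the median of probesets, 0.015 with brightest probesets and -0.18 to 0.016 with an array left out.

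PSMB8 minus PSMB5 shifted by 2.67 with probesets above the table's median, 3.05 with the median of probesets and 2.12 with the brightest. Member probesets called higher were 3 to 8 with an array left out, against 12. Genes called were 363, and 1433 without a filter, 1594 with an intensity trend, 122 with brightest probesets and 172 to 1691 with an array left out. Where 1 array of a group is left out, the lone array is assumed to vary like the others. Dim genes, such as PSMB10, are limited by signal over background.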

Other observations

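Besides the probesets of PSMB10 alone, 6 probesets list both PSMB10 and CTRL, its neighbour, and were left out of the gene values because they name more than 1 gene. Their levels were 7.15 to 7.69 on mimic arrays and 4.99 to 7.02 on control arrays. The changes ran from 0.64 to 2.43 with a median of 1.48. On 5 of the 6 both mimic arrays lay above both control arrays, against 20.7% of the probesets that name 1 gene and passed the filter.

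Within the repeats, array by array, the change of PSMB9 was 2.97 and 3.19, that of PSMB8 2.29 and 2.15 and that of PSMB10 1.87 and 2.31. PSMB6 had -0.17 in repeat 1 and -0.81 in repeat 2.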
